A study of Homo sapiens with 4 samples.

Results

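The 9 genes described here serve antigen presentation by MHC class I molecules: HLA-B, HLA-C, HLA-E, B2M, TAP1, TAP2, TAPBP, PSMB8 and PSMB9. They were found by symbol among 37468 features, and each was counted in every library. The data are raw UMI counts (reads collapsed to unique molecules) from single cells of MSTO-211H, an established human pleural mesothelioma line of wild-type genotype per the labels, kept as a serum-free suspension culture with EGF and bFGF and described in the series as mesothelioma-initiating cells. Control cells got vehicle and no radiation. Radiation cells got 4 Gy, and Drug cells got 10 µM QTP, a compound named in a series on blocking dopamine receptors. Drug_Radiation cells got both, QTP first and 4 Gy on the next day, and every group was collected 48 h after irradiation. There was 1 library per group, made from pooled and dissociated cells of 1 line, so no difference had a replicate check and no test was made. Intervals are at 95% and cover counting error only.

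Class I molecules are built from a heavy chain, such as HLA-B, HLA-C or HLA-E, and the light chain beta-2-microglobulin, encoded by B2M. Peptides are cut from cytosolic proteins by the proteasome, in which the inducible subunits PSMB8 and PSMB9 can replace the constitutive PSMB5 and PSMB6. The transporter TAP1-TAP2 moves peptides into the endoplasmic reticulum, where tapasin, encoded by TAPBP, bridges the transporter and the heavy chain during loading. Interferons raise most of these genes, and loss of them is a known way by which tumours escape T cells.

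In GENCODE 29 (GRCh38) 8 of the 9 genes lie on chromosome 6, in the MHC region, and B2M lies on chromosome 15 from 44711487 to 44718877. HLA-E spans 30489467 to 30494205, HLA-C 31268749 to 31272130 and TAPBP 33299694 to 33314387 of chromosome 6. TAP2 (32821833 to 32838780), PSMB8 (32840717 to 32844703), TAP1 (32845209 to 32853978) and PSMB9 (32844136 to 32859585) are 4 neighbours within 37753 bases. The RefSeq starts of TAP1 and PSMB9 are 488 bases apart, and the genes are read away from each other. The annotated HLA-B span, 31269491 to 31357188, includes a long model that overlaps HLA-C on the same strand. HLA genes are also near copies of each other and differ between people, so how reads were placed among HLA-B, HLA-C and HLA-E is uncertain, and the same holds on opposite strands for the overlaps of TAP1, PSMB8 and PSMB9.

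Promoter sequences from RefSeq (GRCh38.p14) matched 8 of the 9 members, all but HLA-E. The stretches from 200 to 41 bases before the start site are printed for HLA-B, HLA-C and B2M, the members whose levels followed each other most closely from cell to cell. Capitals mark matches on either strand to the letters GAAA, NN and GAAA in a row (interferon response element), GGG, NN, TT, N and CC in a row (NF-kB site), TGACG (core of the X2 box, bound by CREB and ATF factors) and ATTGG (core of the Y box, bound by NF-Y). The sequences are read 5′ to 3′ on the strand of the gene, at chr6:31357220-31357379 (minus strand), chr6:31272133-31272292 (minus strand) and chr15:44711317-44711476 (plus strand).
HLA-B: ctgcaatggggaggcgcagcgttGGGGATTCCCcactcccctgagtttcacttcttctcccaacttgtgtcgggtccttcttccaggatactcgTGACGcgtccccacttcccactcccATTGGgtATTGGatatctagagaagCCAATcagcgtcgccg
HLA-C: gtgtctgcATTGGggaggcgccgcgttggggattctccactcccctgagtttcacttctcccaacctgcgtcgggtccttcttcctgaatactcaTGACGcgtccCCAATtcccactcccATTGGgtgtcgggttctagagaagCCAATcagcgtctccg
B2M: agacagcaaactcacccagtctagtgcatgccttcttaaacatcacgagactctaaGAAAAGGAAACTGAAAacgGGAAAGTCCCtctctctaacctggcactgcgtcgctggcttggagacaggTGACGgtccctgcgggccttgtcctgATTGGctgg

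All 3 stretches hold the X2 core with a Y core closer to the start: the X2 match begins 106 bases before the start in HLA-B, 105 in HLA-C and 75 in B2M. HLA-B has the NF-kB letters 177 bases before the start, and in B2M they lie 125 bases before it, next to a pair of overlapping interferon element matches. In HLA-C the letters at the corresponding place gave no NF-kB match. Over whole windows of 250 bases, the interferon element was matched in 4 members (B2M, TAP1, TAP2 and TAPBP) and in 3.02% of 35116 RefSeq windows. The NF-kB letters were matched in HLA-B, B2M, TAP1 and TAPBP, and in 5.07% of windows. X2 cores were found in 6 members and in 21.2% of windows, and Y cores in 5 members and in 32.0% of windows. The letters were chosen with these windows in view, and a match describes the sequence, not a bound site.

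The libraries differed strongly in depth. After filtering, Control held 3183 cells with a median of 2318 UMIs per cell, Radiation 2425 cells with 5299, Drug 3802 cells with 20405 and Drug_Radiation 6990 cells with 18024.5. No cell barcode was shared between any pair of libraries. QTP went with the deeper libraries, so QTP, depth and any batch that went with them cannot be told apart by the design, and values in cells of closer depth, meaning 6500 to 15000 UMIs (173, 770, 1023 and 2533 cells, a range chosen with earlier results known), are given beside the results they change. Where 4 values stand in a row, they are in the order Control, Radiation, Drug, Drug_Radiation. HLA-G, a class I chain outside the 9, had 99 UMIs in Control and 138 in Radiation but 82 and 109 in the far deeper Drug and Drug_Radiation libraries, or 11.1 and 9.63 CPM against 0.940 and 0.770 CPM, where CPM are UMIs per 1000000 nuclear-encoded UMIs. This gene was singled out after its values were seen. It is a near copy of the other HLA genes, and whether reads of HLA genes were placed in the same way in all libraries was not tested.

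The 9 genes together made up 0.715% of nuclear UMIs in Control and 0.814% in Radiation, then 0.686% in Drug and 0.736% in Drug_Radiation. B2M and HLA-B alone carried most of this, with 58.6% and 28.2% of the members' UMIs in Control, and ranked 55 and 101 among 37455 nuclear-encoded genes there. TAP2 was the lowest member in every library, at rank 5395 in Control. These are counts of 3-prime tags, not levels per length, so they order genes by tags and not by transcripts of a known length. In bulk sums such as these, fewer cells with a transcript and less RNA per cell cannot be told apart; shares of cells follow further on.

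**Figure D1:**
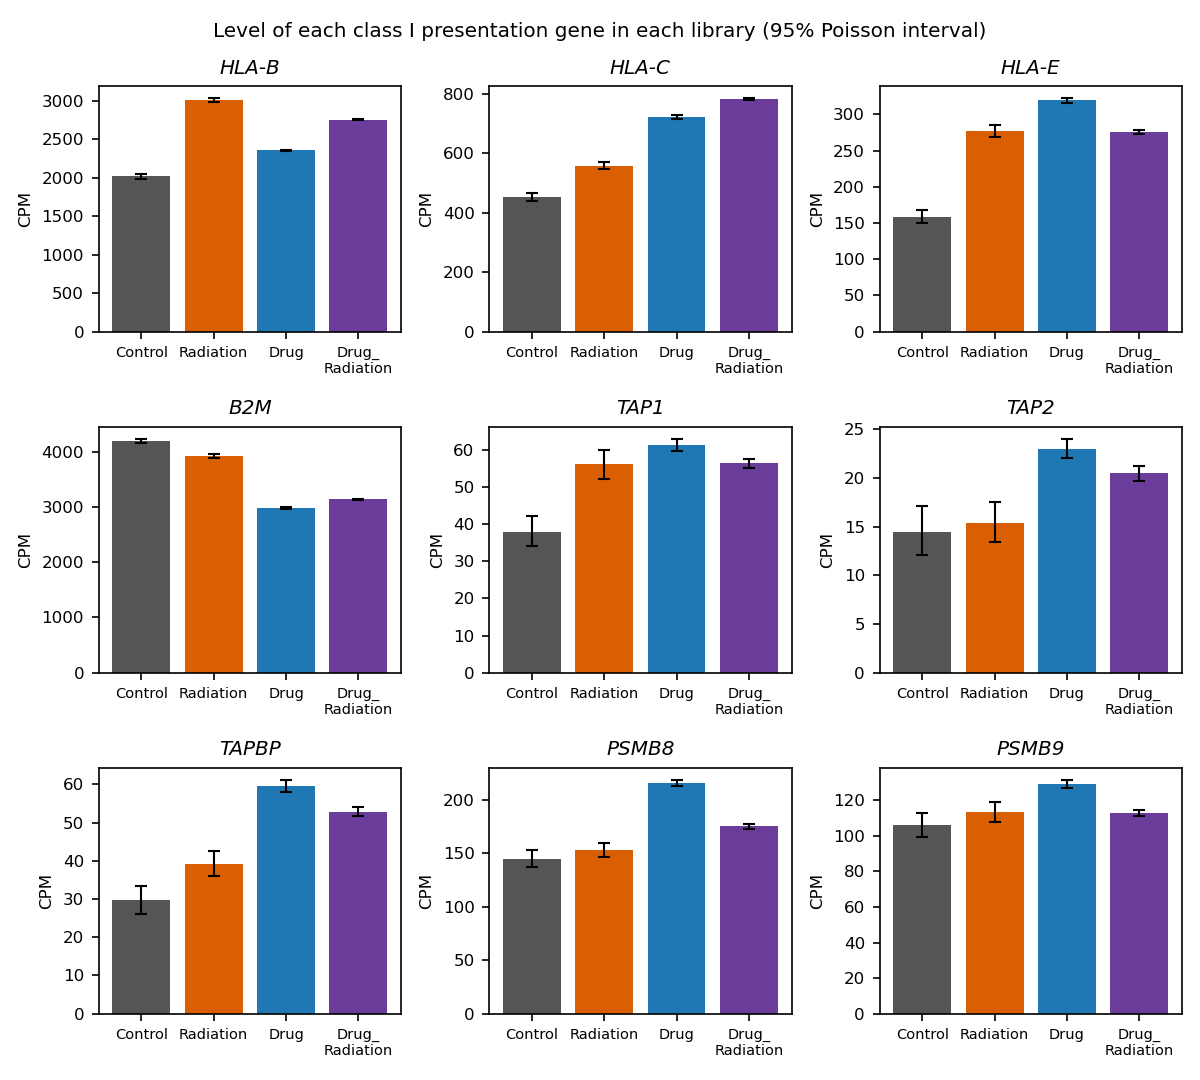
Level of each of the 9 class I presentation genes (CPM, vertical axis from 0 in each panel) in the 4 libraries (bars), with 95% Poisson intervals that cover counting error only. HLA-B, HLA-C, HLA-E, TAP1, TAP2, TAPBP, PSMB8 and PSMB9 have their lowest bar in Control, while B2M has its highest bar there (4192 CPM).

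HLA-B, a classical heavy chain that shows peptides to CD8 T cells, was higher with radiation both without and with QTP. It had 2015 CPM in Control and 3009 in Radiation, then 2355 in Drug and 2751 in Drug_Radiation, so both irradiated libraries lay above both others. The log2 ratio (of CPM plus 1; intervals leave out the added 1) was 0.58 (0.55 to 0.60) for Radiation against Control and 0.22 (0.22 to 0.23) for Drug_Radiation against Drug. At closer depth the level was 2683, 2997, 2314 and 2739 CPM, so the order of the libraries within each pair was kept but the difference without QTP was smaller there. With QTP and no radiation its ratio was 0.22 (0.20 to 0.25) in all cells, but it was below 0 under TMM scaling (-0.17), under median-of-ratios scaling and in cells of 6500 to 15000 UMIs. With QTP on irradiated cells it was -0.13 (-0.14 to -0.12).

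HLA-C, the second classical heavy chain and a main ligand of killer cell receptors, was higher with QTP. It had 452 CPM in Control and 558 in Radiation, then 722 in Drug and 782 in Drug_Radiation, an order that put both QTP libraries above both others. Its log2 ratio was 0.68 (0.63 to 0.72) for Drug against Control and 0.49 (0.45 to 0.52) for Drug_Radiation against Radiation. The median gene had 0.50 and 0.13 in these comparisons. At closer depth the levels were 554, 553, 664 and 765 CPM, so both QTP libraries remained above the others, while Radiation and Control had nearly equal values there. The median gene for Drug against Control was 0.24 in that range. In cells of 6500 to 10000 UMIs the HLA-C ratio for Drug against Control was 0.26, below the median gene (0.35). For Drug_Radiation against Radiation it was 0.49 in those cells, above the median gene (0.09). The radiation ratio was 0.30 (0.25 to 0.36) without QTP in all cells, and 0.12 (0.10 to 0.13) with QTP.

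HLA-E, a nonclassical heavy chain that presents leader peptides of other class I chains to NKG2A receptors, was lowest in Control. It had 159 CPM in Control and 277 in Radiation, then 319 in Drug and 276 in Drug_Radiation. The 3 treated libraries lay within 276 to 319 CPM, and Radiation and Drug_Radiation did not differ beyond their intervals (268 to 285 and 273 to 279 CPM). The ratio was 0.80 (0.71 to 0.89) for Radiation against Control and 1.003 (0.93 to 1.08) for Drug against Control, the latter being the only member ratio to pass 2-fold. The median gene had 0.18 and 0.50 in these comparisons. Cells of closer depth gave 211, 266, 267 and 274 CPM for HLA-E, so Control was again lowest, at a smaller distance. In cells of 6500 to 10000 UMIs the HLA-E ratio for Drug against Control was 0.341 (0.13 to 0.56), just below the median gene there (0.347). For Drug_Radiation against Drug the ratio was -0.21 (-0.23 to -0.19) in all cells and above 0 in cells of 6500 to 15000 UMIs.

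B2M, the shared light chain, was lower with QTP. It had 4192 CPM in Control and 3922 in Radiation, then 2979 in Drug and 3137 in Drug_Radiation, so both QTP libraries lay below both others. The log2 ratio was -0.49 (-0.51 to -0.48) for Drug against Control and -0.32 (-0.33 to -0.31) for Drug_Radiation against Radiation, and it was below 0 in all 11 alternatives in both. Of all genes with at least 20 CPM, 3.61% had a lower ratio than B2M in Drug against Control and 6.95% in Drug_Radiation against Radiation. At closer depth B2M had levels of 4176, 3894, 3115 and 3210 CPM, close to those of all cells. Its radiation ratios were small, -0.10 (-0.11 to -0.08) without QTP and 0.07 (0.07 to 0.08) with it.

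The balance of heavy to light chain transcripts therefore differed between libraries. HLA-B UMIs per B2M UMI were 0.481 in Control and 0.767 in Radiation, then 0.790 in Drug and 0.877 in Drug_Radiation. The ratio was lowest in Control and highest in Drug_Radiation, and the same order of these extremes held in cells of 6500 to 15000 UMIs (0.643, 0.770, 0.743 and 0.853). HLA-C per B2M was 0.108 and 0.142 without QTP and 0.242 and 0.249 with it. HLA-E per B2M was 0.0379, 0.0705, 0.107 and 0.0880. Both of these ratios also had their lowest value in Control at closer depth, 0.133 for HLA-C and 0.0504 for HLA-E.

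**Figure D2:**
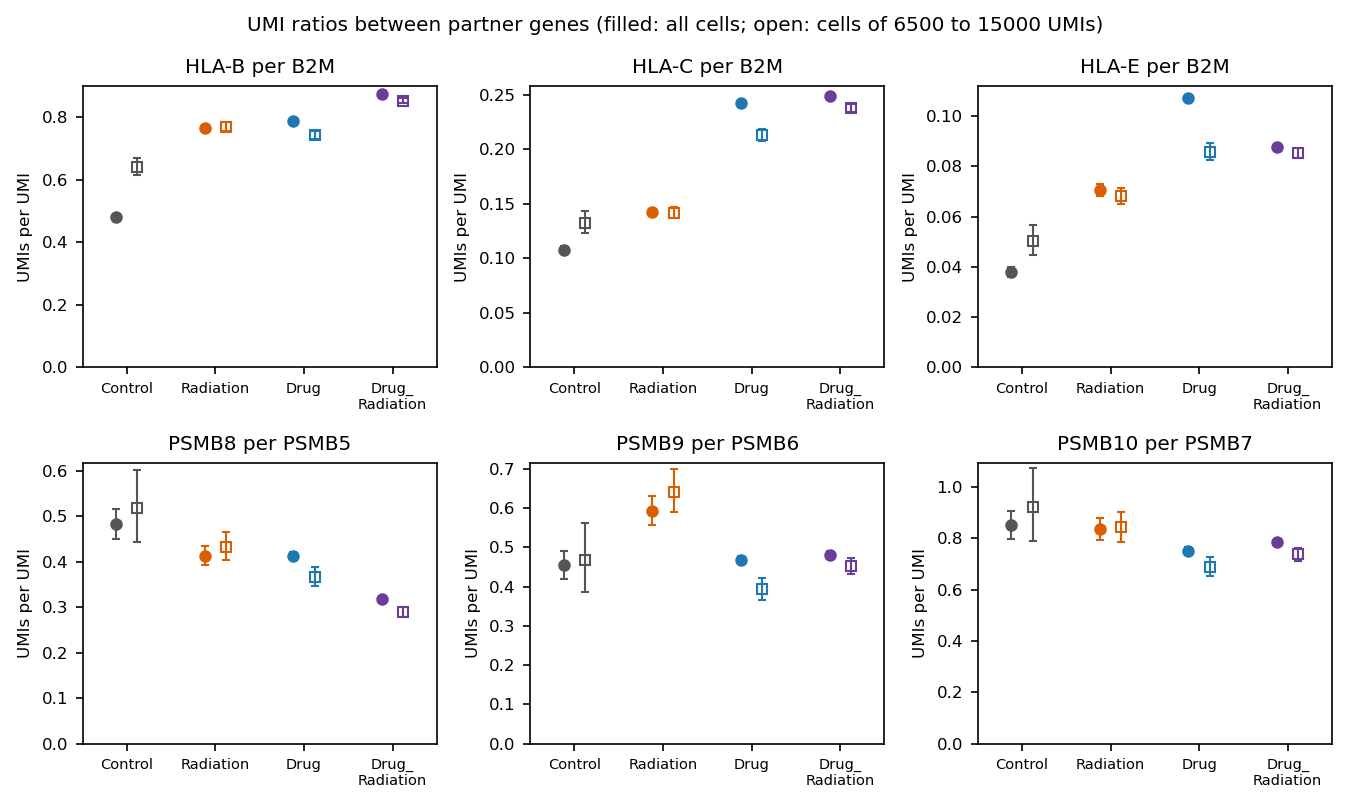
UMIs of one gene per UMI of its partner (vertical axis from 0) in each library, for 3 heavy chains against B2M and for 3 inducible proteasome subunits against the constitutive subunit each replaces. Filled circles are all cells and open squares are cells of 6500 to 15000 UMIs, with 95% intervals for counting error; heavy chains per B2M are lowest in Control (HLA-B 0.481), and PSMB8 per PSMB5 is lowest in Drug_Radiation (0.317).

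Among the transport and loading genes, TAPBP was higher with QTP in all cells and at closer depth. TAPBP, or tapasin, had 29.6 CPM in Control and 39.1 in Radiation, then 59.6 in Drug and 52.8 in Drug_Radiation, both QTP libraries being above both others. The ratio was 0.98 (0.83 to 1.19) for Drug against Control, just short of 2-fold, and 0.42 (0.31 to 0.56) for Drug_Radiation against Radiation. At closer depth TAPBP had 40.4, 42.2, 58.5 and 49.5 CPM. The Control and Radiation values in that range rest on 56 and 288 UMIs and did not differ beyond counting error. In the 2 depth bins that Drug_Radiation and Radiation share, the TAPBP ratio was 0.33 (0.07 to 0.61) in cells of 6500 to 10000 UMIs and 0.22 (-0.06 to 0.52) in cells of 10000 to 15000 UMIs, the latter with 0 inside its interval.

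TAP1 and TAP2 form the peptide transporter and behaved differently. TAP1 had 38.0 CPM in Control and 56.1 in Radiation, then 61.4 in Drug and 56.4 in Drug_Radiation, with only Control standing below the rest. At closer depth this was not so: TAP1 then had 60.6, 58.7, 55.1 and 46.5 CPM, with Drug_Radiation lowest. Its ratio for Drug against Control was 0.68 (0.53 to 0.85) in all cells and -0.13 at closer depth, where Control had 84 TAP1 UMIs. In cells of 6500 to 10000 UMIs it was -0.06 (-0.46 to 0.35), so a lower level in Drug was not shown beyond counting error there. TAP2, the second subunit, had 14.4, 15.4, 23.0 and 20.5 CPM, and at closer depth it had 15.1, 16.7, 21.0 and 18.7 CPM. The Control and Radiation values of TAP2 in that range rest on 21 and 114 UMIs. For Drug_Radiation against Radiation its ratio was 0.61 (0.21 to 1.09) in cells of 6500 to 10000 UMIs and -0.13 (-0.56 to 0.31) in cells of 10000 to 15000 UMIs. These libraries thus differed beyond counting error in the shallower of these bins but not in the deeper one. TAP2 passed 20 CPM only in the QTP libraries.

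The inducible proteasome subunits were highest in Drug over all cells, but not at closer depth. PSMB8, also called LMP7, had 145 CPM in Control and 153 in Radiation, then 216 in Drug and 175 in Drug_Radiation, with Drug highest. PSMB9, or LMP2, had 106, 113, 129 and 113 CPM, and Radiation and Drug_Radiation could not be told apart by counting error. Radiation went with lower values of both under QTP, at -0.30 (-0.33 to -0.27) for PSMB8 and -0.19 (-0.23 to -0.16) for PSMB9; the median gene in that comparison had -0.18. At closer depth Control had the highest PSMB8 level (187, 164, 162 and 147 CPM). PSMB9 had 123, 128, 101 and 94.97 CPM there, so both QTP libraries were then the lower ones and the ratios for Drug against Control were below 0 for both genes.

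PSMB8 and PSMB9 take the place of PSMB5 and PSMB6 in the core particle, and PSMB10 that of PSMB7. PSMB8 UMIs per PSMB5 UMI were 0.482 in Control and 0.413 in Radiation, then 0.413 in Drug and 0.317 in Drug_Radiation. Drug_Radiation was lowest, and it was so at closer depth (0.517, 0.433, 0.366 and 0.289). The constitutive PSMB5 itself had 301, 371, 523 and 553 CPM, highest in the QTP libraries. PSMB9 per PSMB6 was 0.454, 0.593, 0.467 and 0.480, highest in Radiation. At closer depth PSMB9 per PSMB6 was 0.467, 0.642, 0.394 and 0.452, again highest in Radiation. Both QTP libraries lay below Control there, but the Control interval (0.387 to 0.562) held both of their values. PSMB10 per PSMB7 was 0.849, 0.835, 0.751 and 0.784, lower in both QTP libraries than in both others.

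Across the 9 genes, few ratios were large. Radiation against Control gave 0 of 9 members past 2-fold, where 3.05% of 4818 genes with at least 20 CPM were past it either way. TAP2, under 20 CPM in both libraries, is counted among the 9 but not among the 4818. The 8 members that passed 20 CPM had a median ratio of 0.35. Of the 9, 8 had a ratio above 0, beside 68.2% of all genes, and 5 lay above the median gene (0.18). The median of all 9 members was 0.30, led by HLA-E, HLA-B and TAP1. At closer depth that median was 0.06 beside 0.07 for all genes, 5 of 9 members had a ratio above 0, and TAP1 was at -0.04.

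Drug_Radiation against Drug gave 0 of 9 past 2-fold, beside 0.395% of 5570 genes. HLA-B, HLA-C and B2M had ratios above 0, 3 of 9, beside 21.6% of all genes, and the members' median of -0.16 was near the median gene (-0.18). HLA-B stood higher than 94.6% of all genes in this comparison. The genes of transport, loading and the proteasome all had ratios below 0, from -0.30 for PSMB8 to -0.12 for TAP1, but under TMM scaling TAP1, TAP2 and TAPBP were just above 0.

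Drug against Control gave 1 of 9 past 2-fold, HLA-E, beside 10.9% of 5546 genes either way. B2M was the only member with a ratio below 0, so 8 of 9 were above 0 beside 89.9% of all genes. The members' median was 0.64 and that of all genes 0.50. HLA-E at 2.003-fold lay just past the limit and TAPBP at 1.98-fold just short of it. At closer depth the members' median turned to -0.13 beside 0.24 for all genes, and 4 of 9 members were above 0. No member was past 2-fold there or under TMM scaling.

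Drug_Radiation against Radiation gave 0 of 9 past 2-fold, beside 2.75% of 5239 genes. TAPBP, HLA-C and TAP2 had the highest ratios (0.42, 0.49 and 0.39), and 5 of 9 were above 0, beside 66.9% of all genes. The members' median was 0.01 against 0.13 for all genes, and at closer depth it was -0.13 against 0.01, with 4 of 9 above 0. Drug_Radiation against Control gave 0 of 9 past 2-fold, beside 7.78% of 5243 genes, with 8 of 9 above 0 beside 79% of all genes. There TAPBP (0.81), HLA-E (0.79) and HLA-C (0.79) were highest and B2M (-0.42) lowest. The members' median in that comparison was 0.48 in all cells and 0.03 at closer depth, where 5 of 9 were above 0. Control serves in 3 of these comparisons and Drug_Radiation in 3, so their values are not independent of each other.

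**Figure D3:**
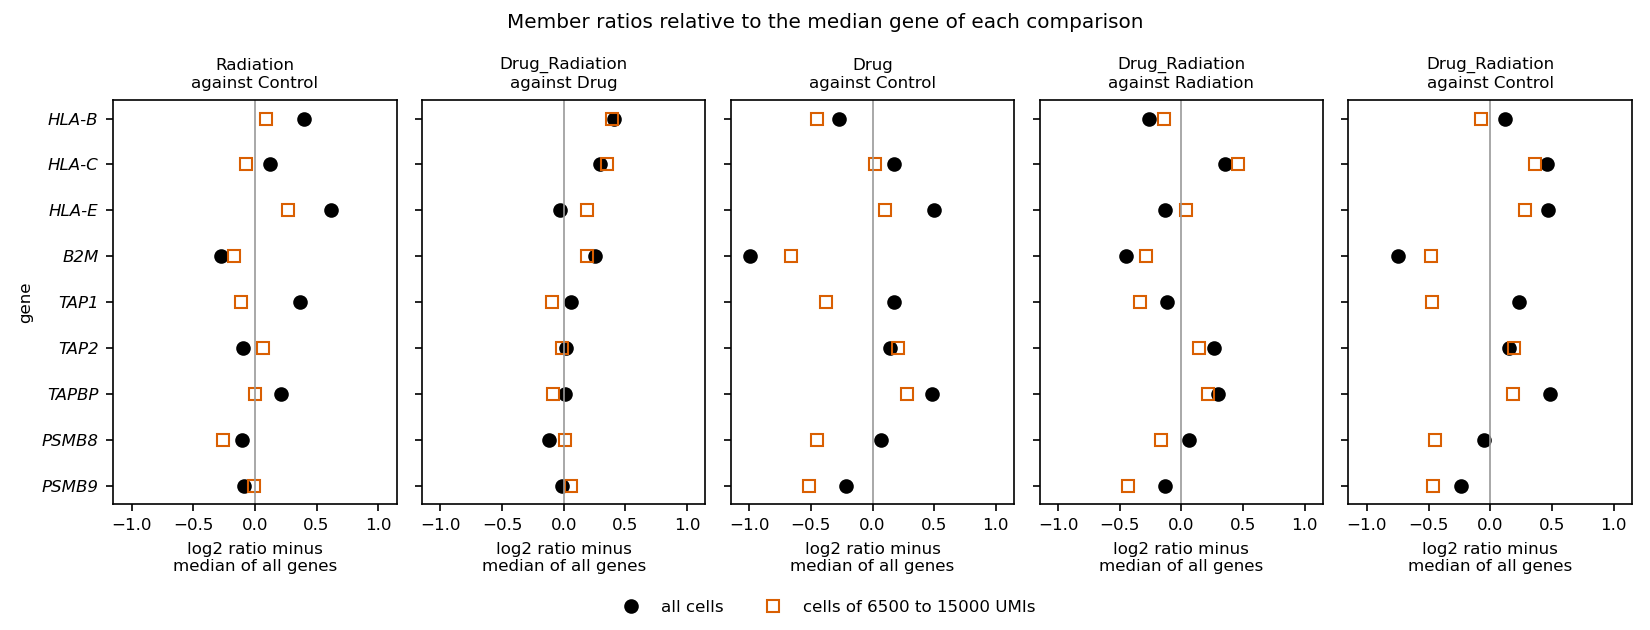
Log2 ratio of each member minus the median log2 ratio of all genes with at least 20 CPM (horizontal axis, 0 being the median gene), in each of the 5 comparisons, for all cells (black circles) and for cells of 6500 to 15000 UMIs (orange squares). B2M lies left of 0 in the 3 comparisons that set a QTP library against one without QTP, TAPBP lies right of 0 in the same comparisons, and HLA-B and HLA-C lie right of 0 for Drug_Radiation against Drug, in both sets of cells.

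Levels of several members moved with the depth of the cell within a library. Cells were sorted into bins by UMIs per cell, a division made after seeing the data, and bins of at least 100 cells were used. In Control, HLA-B was higher in each deeper bin, from 1318 CPM in cells of 1000 to 2000 UMIs through 1765, 2163 and 2298 to 2626 CPM in cells of 6500 to 10000 UMIs. Over the same bins B2M stayed between 4104 and 4308 CPM. In Radiation, HLA-B was nearly level, at 3026 CPM in cells of 2000 to 3000 UMIs and 3094 CPM in cells of 10000 to 15000 UMIs. HLA-C and HLA-E had their lowest values in the shallowest Control cells too, 308 and 97.9 CPM, against 561 and 203 CPM in the deepest Control bin. The shallow Control cells, most of that library, thus carried fewer heavy chain tags per 1000000 but as many B2M tags as deeper ones.

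Compared bin by bin, HLA-B had a radiation ratio above 0 in 4 of 4 bins without QTP (0.16 to 0.78) and in 5 of 5 bins with QTP (0.15 to 0.28). HLA-E was above 0 in 4 of 4 bins without QTP (0.33 to 1.07) and in 2 of 5 with QTP. HLA-C was above 0 in 5 of 5 bins with QTP, and 3 of 4 without. PSMB8 was below 0 in all 4 and all 5 radiation bins, and PSMB9 was below 0 in 3 of 4 and 5 of 5. Over all cells 68.2% of genes were above 0 in the radiation comparison without QTP and 21.6% in that with QTP. The median gene with QTP was at -0.18, within the range of the PSMB9 bins there (-0.21 to -0.09). For QTP fewer bins could be matched. In the 1 bin shared by Drug and Control and the 2 bins shared by Drug_Radiation and Radiation, HLA-C and TAPBP were above 0 in each, and B2M, PSMB8, PSMB9 and TAP1 were below 0 in each. Ratios of HLA-B with QTP were below 0 in each of these bins. Over all cells 89.9% of genes were above 0 for Drug against Control and 66.9% for Drug_Radiation against Radiation. In the bin shared by Drug and Control the median gene was at 0.35, so HLA-C (0.26) lay below it and TAPBP (0.77) above it. The intervals of TAP1 (-0.46 to 0.35) and PSMB8 (-0.44 to 0.04) held 0 in that bin. For Drug_Radiation against Radiation the median gene was at 0.09 in cells of 6500 to 10000 UMIs.

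**Figure D4:**
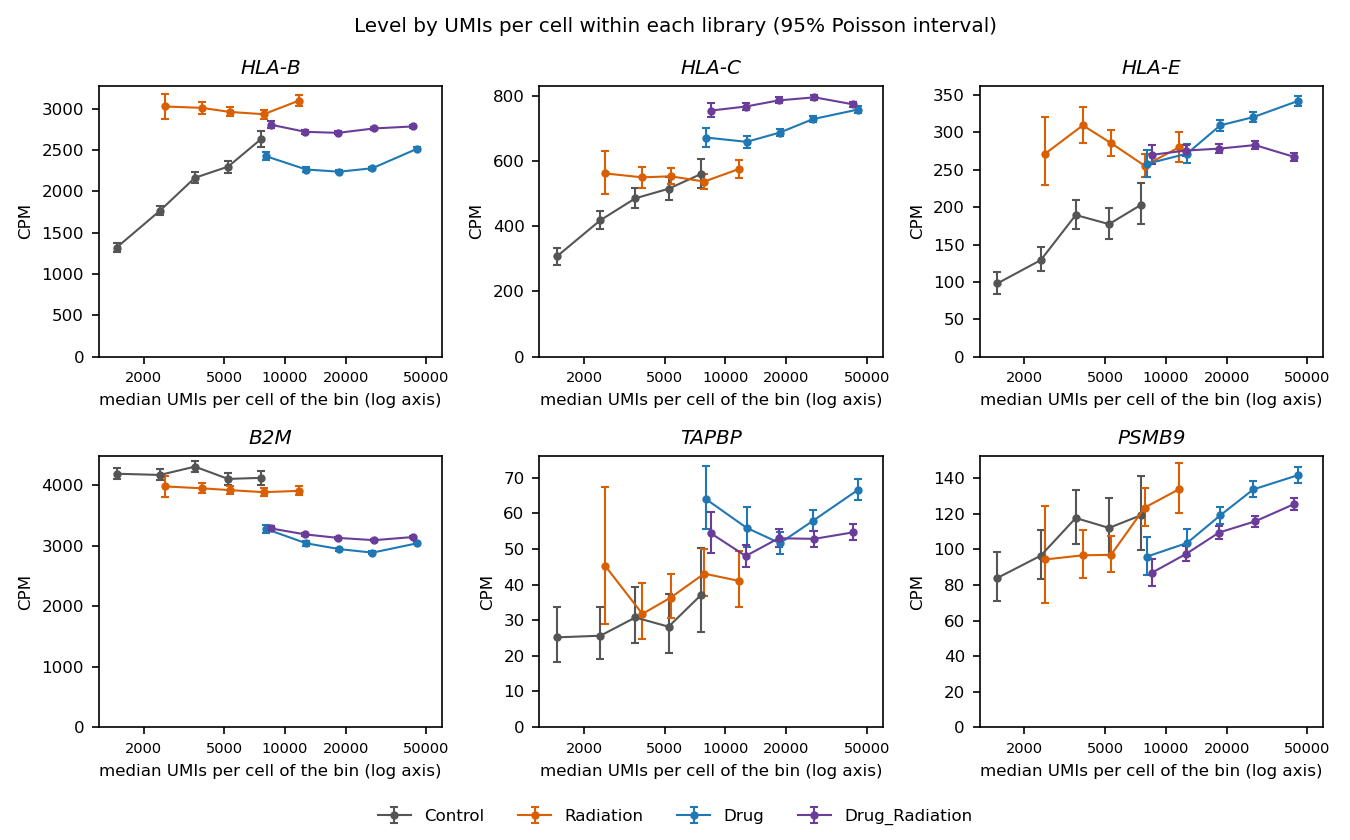
CPM (vertical axis from 0) of 6 members against the median UMIs per cell of bins of cells (log horizontal axis) within each library, with 95% Poisson intervals for counting error. HLA-B goes from 1318 to 2626 CPM over the Control bins while B2M stays between 4104 and 4308 CPM there; B2M lies lower in both QTP libraries than in the others at every shared depth.

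Shares of cells with at least 1 UMI were compared after thinning each cell to 1000 UMIs, which left out no cell. B2M was seen in 96.8% of Control cells (interval 96.2 to 97.4), 95.5% of Radiation, 92.8% of Drug and 93.5% of Drug_Radiation cells. The unthinned shares of B2M were 99.3% or more in all 4 libraries. HLA-B was seen in 74.7%, 91.5%, 85.6% and 89.3% of thinned cells, and in 88.6% of Control cells before thinning. HLA-E was seen in 11.6% of thinned Control cells and in 22.4% to 24.4% of the treated libraries' cells. TAP2, the rarest member, was seen in 1.23% to 2.55% of thinned cells. No cell type without class I genes was present in these cultures, so the part of free RNA in these shares was not tested.

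The QTP libraries were deep enough to thin each cell to 6000 UMIs. At that depth all 3802 Drug cells and all 6990 Drug_Radiation cells had B2M, and HLA-B was seen in 99.9% of both. In Drug, HLA-B had a median of 12 UMIs per cell, from 6 at the 10th percentile to 22 at the 90th. Drug_Radiation cells had a median of 14 HLA-B UMIs, from 8 to 25, so the whole distribution was shifted up and the libraries overlapped broadly. The variance over the mean, 1 for pure counting error, was 3.45 and 3.56 for HLA-B, 2.59 in both for B2M and 1.54 and 1.55 for HLA-C. HLA-E had 1.37 and 1.23. TAP1, TAP2, TAPBP, PSMB8 and PSMB9 had values from 1.01 to 1.10. Cells therefore differed in HLA-B and B2M well beyond counting error. For the same relative spread this measure goes up with the mean. In Drug the mean was 13.3 UMIs for HLA-B and 17.2 for B2M, but 0.117 for TAP2 and 1.16 for PSMB8. Values near 1 therefore do not show that the rarer members varied less between cells.

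Within a library, the heavy chains and B2M followed each other over cells and the other members hardly did. The correlations are Pearson values of log-scaled UMIs per 10000 over cells of 1 library, which share that library and its depth, and they are given as description. HLA-B and HLA-C had 0.711 in Drug and 0.676 in Drug_Radiation. HLA-B and B2M had 0.617 and 0.642 there. In cells of 6500 to 15000 UMIs the highest of the 36 pairs had 0.553 in Control and 0.597 in Radiation, then 0.667 in Drug and 0.632 in Drug_Radiation. The median pair had 0.0871, 0.0567, 0.0973 and 0.0805, and in sparse counts such weak values carry no finding.

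**Figure D5:**
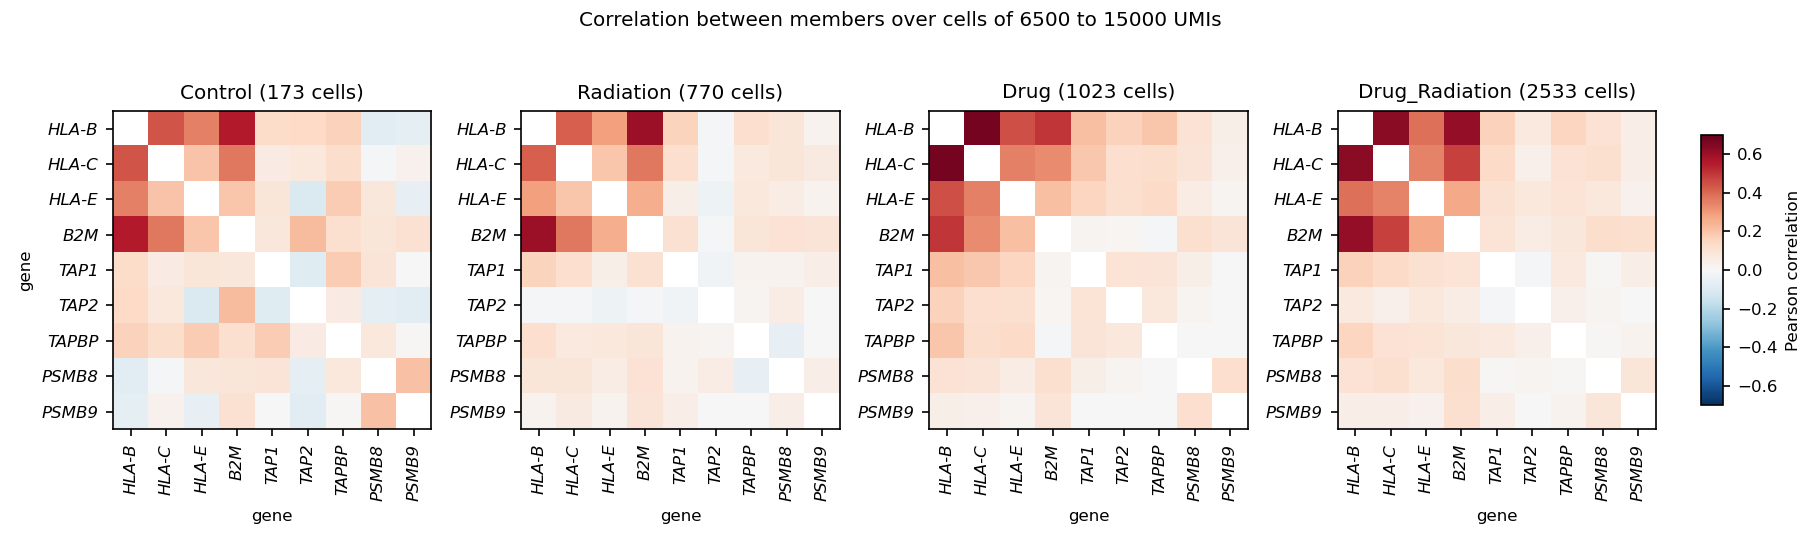
Pearson correlation (colour) between each pair of members over cells of 6500 to 15000 UMIs, 1 panel per library, with genes on both axes. A block of HLA-B, HLA-C, HLA-E and B2M stands out in all 4 panels, with highest pairs from 0.553 in Control to 0.667 in Drug, while pairs with TAP1, TAP2, TAPBP, PSMB8 and PSMB9 are pale.

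The genes most like the members over cells were ranked by the lower of their Drug and Drug_Radiation correlations with the summed members, over 11440 genes whose median was 0.0124. Among the first 10 were PSAP, the precursor of lysosomal saposins (0.525), SRGN, a proteoglycan core protein (0.520), TIMP1, an inhibitor of metalloproteases (0.495), and CTSB, a lysosomal protease (0.452). GRN (0.440), LGALS3BP (0.439), CD63 (0.430) and FTL (0.413) were also among them. These 8 genes had correlations of 0.252 to 0.476 in Control cells of 6500 to 15000 UMIs. By pattern over the 4 libraries alone, SEPTIN11, RAB3GAP1, PWWP3A, MED29 and TRIM37 were nearest to the members' median profile among 5664 genes, a likeness that rests on only 4 points.

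Partners in peptide loading and trimming were mostly lowest in Control. Of 8 such genes with at least 20 CPM, 7 lay above the median gene for Radiation against Control (list median 0.67) and 6 for Drug against Control (0.70). PDIA3, the disulfide isomerase ERp57 of the loading complex, had 225 CPM in Control and 426 in Radiation, then 303 in Drug and 297 in Drug_Radiation. CANX, the chaperone calnexin that holds new heavy chains, had 107, 152, 199 and 187 CPM. NRDC, a cytosolic peptidase, had 19.4, 34.9, 47.0 and 37.3 CPM, and ERAP2, which trims peptides in the endoplasmic reticulum, had 20.3, 22.5, 26.8 and 23.4 CPM. At closer depth the list median for Radiation against Control was 0.50, with 7 of 8 above the median gene. For Drug against Control it was 0.07 in that range, with 3 of 8 above, and the median gene was 0.24.

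Most core and activator subunits of the proteasome lay below the median gene against Control. Of 14 constitutive core genes, 2 lay above the median gene for Radiation against Control (list median -0.02) and 2 for Drug against Control (0.22). PSMB5 and PSMB7 had the highest ratios of this list for Drug against Control, and PSMB1 and PSMB3 the lowest. PSMB3 had 456, 451, 423 and 389 CPM. Of 5 other proteasome genes, PSMB10, PSME1, PSME2, PSME3 and POMP, 1 lay above the median gene in each of those comparisons. It was PSME3 in both, with 46.7, 59.5, 69.7 and 66.5 CPM. PSME1, part of the activator PA28, had 308, 304, 420 and 351 CPM. POMP, the assembly chaperone of the proteasome, had 378, 301, 437 and 378 CPM, and PSMB10 had 202, 201, 258 and 219 CPM.

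Regulators of class I transcription were mostly expressed at low levels. NLRC5, the class I transactivator, had 9.05 CPM in Control and 8.37 in Radiation, then 11.6 in Drug and 11.6 in Drug_Radiation, on 81 to 1646 UMIs. IRF1, an interferon-induced factor, had 42.0, 68.0, 76.0 and 67.2 CPM, with Control lowest, as it was in cells of 6500 to 15000 UMIs (46.1 CPM against 63.6 to 68.9). RFX5, which binds the X box, had 4.81, 7.74, 13.9 and 11.6 CPM. Of 9 transcription factor genes with at least 20 CPM, 5 lay above the median gene for Radiation against Control, and of 10 for Drug against Control 7 did. RELA, an NF-kB subunit, had 16.4, 32.0, 33.8 and 28.6 CPM, and NFKB1, another, had 32.0, 26.0, 30.0 and 28.4 CPM.

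Over all cells, interferon targets lay near the median gene with either treatment. Of 10 with at least 20 CPM, 4 lay above the median gene for Drug against Control, and of 8 for Radiation against Control 4 did, with list medians of 0.45 and 0.18 beside 0.50 and 0.18 for all genes. At closer depth the list median for Drug against Control was 0.08 beside 0.24 for all genes, with 3 of 10 above. For Radiation against Control it was 0.11 beside 0.07 there, with 5 of 8 above. IFIT3 had 31.2 CPM in Control and 30.5 in Radiation, then 52.9 in Drug and 47.1 in Drug_Radiation. TRIM22 had 26.9, 42.5, 33.0 and 33.0 CPM. CXCL10, a chemokine strongly induced by interferon, had 0 UMIs in 3 libraries and 10 in Drug; with 0, a level of up to 0.335 CPM in Control is allowed by a floor of 3 counts. STAT2 and IRF9, which act together at interferon response elements, had the highest ratios for Drug against Control among receptor and signalling genes, with 14.1 and 9.61 CPM in Control and 26.2 and 21.9 CPM in Drug.

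Genes that act on class I chains after synthesis included SYVN1, which had 7.93 CPM in Control and 16.8 in Radiation, then 35.3 in Drug and 57.1 in Drug_Radiation. SYVN1, the ubiquitin ligase HRD1 of endoplasmic reticulum degradation, was among 10 genes of class I turnover, of which 5 passed 20 CPM for Drug against Control and 4 of these lay above the median gene. Its partner SEL1L had 16.4 CPM in Control and 17.1 in Radiation, then 26.6 in Drug and 24.4 in Drug_Radiation. HM13, a peptidase that clears signal peptides, had 112, 199, 184 and 162 CPM. The NKG2D ligand MICA, a class I-like stress molecule, had 15.8, 21.4, 35.0 and 29.3 CPM, both QTP libraries being above both others. FCGRT, a class I-like chain that binds antibodies, had 16.4, 20.9, 27.1 and 27.1 CPM. HLA-F, a nonclassical heavy chain, had 59.2, 59.8, 75.4 and 63.8 CPM. FCGRT and HLA-F belong to the list of other class I and class I-like chains, of which 3 passed 20 CPM. For Drug against Control the list median was 0.57 in all cells, with 2 of 3 above the median gene (0.50). At closer depth it was 0.03, with 1 of 3 above the median gene (0.24).

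PRC2, the complex that can silence class I genes through histone methylation, was measured by 5 genes. Only JARID2 and SUZ12 passed 20 CPM, with 17.8, 17.9, 23.5 and 25.1 CPM for JARID2 and 27.6, 24.6, 30.6 and 26.2 CPM for SUZ12. Inhibitory ligands were mostly low, and CD274, which encodes PD-L1, had 1.81 to 3.18 CPM. CD47, a signal against phagocytosis, had 76.0, 73.5, 81.8 and 72.3 CPM, and NECTIN2 had 18.6, 17.5, 22.3 and 23.9 CPM. Of 18 G2 and M phase genes, 0 of the 7 with at least 20 CPM lay above the median gene in either radiation comparison, with list medians of -0.54 without QTP and -0.76 with it. At closer depth the list median was -0.04 without QTP, with 2 of 7 above the median gene (0.07), and -0.79 with QTP, with 0 of 7 above. Over all cells the summed level of that list was 552 CPM in Control and 390 in Radiation, then 594 in Drug and 353 in Drug_Radiation, lower in both irradiated libraries, in which HLA-B was higher; the part of cell division in the HLA-B result was not tested.

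Markers of other cells that carry class I genes were scarce. Of 11 leukocyte markers, CD68 alone reached 20 CPM, with 16.2 CPM in Control and 39.3 to 41.4 CPM in the other libraries; it is a lysosomal protein also made outside leukocytes. The defining leukocyte marker PTPRC had 0.169 to 0.335 CPM, and CD3D, CD2, NKG7, LYZ and MS4A1 were at 0 in Control. The summed level of the list was 18.1 CPM in Control and 42.1 in Radiation, then 40.8 in Drug and 40.4 in Drug_Radiation, nearly all of it CD68. Control was thus lowest for CD68 as for the heavy chains, and the part of other cells in the members' levels was not tested beyond these markers. Class II genes were mostly low. HLA-DMA, a chain that helps load class II molecules, had 9.05, 9.56, 16.5 and 16.7 CPM, and HLA-DPA1, a class II chain, had 2.91 to 6.58 CPM. HLA-DRA had 0 UMIs in Control and Radiation and 8 in each QTP library, and the invariant chain CD74 had 0.209 to 0.642 CPM. Of 9 class II genes only the protease CTSS passed 20 CPM, at 26.3, 33.5, 47.0 and 37.7 CPM. Endothelial and erythroid markers summed to at most 1.18 and 2.99 CPM. Of 10 markers of the mesothelioma line, KRT8, KRT18, VIM and CALB2 passed 20 CPM, and KRT18 had 2696 to 2852 CPM. Mesothelin (MSLN) had 8.27 to 14.0 CPM, WT1 1.12 to 1.89 CPM, and KRT19, UPK3B and PDPN were under 1 CPM in every library.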

How the data were processed

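The authors deposited raw UMI counts, not normalized, for each gene in each barcode of 4 single-cell libraries (Control, Radiation, Drug and Drug_Radiation), 1 for each group. Per the labels' protocols a PIPseq 3-prime kit was used, while the description label names another platform. The submitters' processing notes list Seurat 4.3.3 and hg38 without their roles. Not given in the sources used here are the aligner, counter, strand, annotation and barcode calling.

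Cells with at least 500 UMIs, at least 300 genes and under 20% mitochondrial UMIs were kept, 3183 of 3184 barcodes in Control, 2425 of 2428 in Radiation, 3802 of 3806 in Drug and 6990 of 7006 in Drug_Radiation. No cell was removed as a doublet. The kept cells held 9249567, 14859709, 90903552 and 149368293 UMIs. The lowest deposited barcode had 1009, 1592, 6427 and 6244 UMIs, so barcodes had been selected before deposit at levels that differed.

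UMIs were added up per library and divided by its nuclear-encoded total to give CPM, and compared as log2 ratios after adding 1 CPM. Intervals are exact Poisson for CPM, exact conditional binomial for ratios and Clopper-Pearson for shares, and leave out the added 1 CPM. The background of a comparison is every gene that reached 20 CPM on either side, called by a size of 2-fold. With 1 library per group, no test was made. The members and the 19 gene lists were chosen with earlier results of these data known. All members are named. Of each other list, the rule named the pair of genes with the highest and the pair with the lowest mean QTP ratio, together with PSMB5, PSMB6, PSMB7, NLRC5, IRF1 and RFX5; HLA-G, CXCL10, CD274, HLA-DRA, CD74 and the low cell type markers were named outside the rule, after their values were seen. Some genes that the rule names are not reported here. None of 9 HLA class I pseudogenes was matched by symbol, and of 25 interferon targets 24 were matched.

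Python 3.11.15 with numpy 2.4.6, scipy 1.17.1, pandas 2.3.3 and matplotlib 3.10.9 was used, and edgeR 4.0.16 and DESeq2 1.42.0 in R 4.3.3 gave alternative scaling factors only. Thinning used seed 0. The size rule and intervals were tested on simulated data, with 200 genes changed in each comparison. Every 3-fold and no 1.5-fold change passed 2-fold, as did 0 unchanged genes, and intervals held the true ratio for 95.3% of 4473 genes (Radiation against Control), 95.4% of 5256 (Drug_Radiation against Drug), 94.8% of 5363 (Drug against Control), 95.3% of 5063 (Drug_Radiation against Radiation) and 94.9% of 5066 (Drug_Radiation against Control). The simulation holds counting error only.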

Additional observations from a re-analysis of the deposited data

Results flagged for a closer look

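For 4 members the radiation ratio pointed one way in the library pair without QTP and the other way in the pair with QTP, with counting intervals that left out 0 in both. The difference, with QTP minus without, was -1.01 for HLA-E, -0.67 for TAP1, -0.56 for TAPBP and 0.17 for B2M on the log2 scale. With 1 library per group these differences were not tested. The median gene also changed sign, from 0.18 without QTP to -0.18 with it, and genes above 0 went from 68.2% to 21.6%. Minus the median gene, the ratios without and with QTP were 0.61 and -0.03 for HLA-E and -0.28 and 0.26 for B2M. They were 0.37 and 0.06 for TAP1 and 0.21 and 0.01 for TAPBP, so TAP1 and TAPBP stayed above the median gene in both pairs. In cells of 6500 to 15000 UMIs the ratios of HLA-E were above 0 in both pairs and those of TAP1 were below 0 in both, and under TMM scaling TAP1 and TAPBP were just above 0 with QTP as well. The libraries of each pair differ in depth, the pair without QTP more so, and the part of depth in these differences was not tested.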

How the results depend on the processing

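Of 45 member ratios (9 genes in 5 comparisons), 26 kept their sign and 27 kept their side of the median of all genes in all 11 alternatives. Those were other cell filters, scalings, pseudocounts and expression limits, thinning, equal weight per cell and cells of 6500 to 15000 or 6500 to 10000 UMIs, the last chosen after seeing the data. The number of members past 2-fold for Drug against Control, 1 in all kept cells, was 0 under the stricter cell filter, TMM scaling, median-of-ratios scaling, the total with mitochondrial UMIs, a pseudocount of 5 CPM and both depth ranges, 2 with equal weight per cell and 3 after thinning to 1000 UMIs. For Radiation against Control and Drug_Radiation against Control it was 1 instead of 0 with equal weight per cell and after thinning. Members above the median of all genes for Radiation against Control were 5 in all cells and 3 in both depth ranges, and for Drug against Control 6 in all cells and 2 in cells of 6500 to 10000 UMIs. The cause of these moves was not tested. TMM scaling brought the share of genes 2-fold higher for Drug against Control from 8.60% to 1.22% and the share lower from 2.34% to 3.46%. No paired analysis was possible because each group has 1 library. Counting error limits TAP2 and TAPBP in Control most, with 129 and 265 UMIs.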
